A study of Mus musculus with 6 samples.

Results

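Matrix proteoglycans and hyaluronan synthases were examined as 10 genes, chosen by symbol among the 46517 genes counted in mouse renal tubular epithelial cells (RTECs). They are Vcan, Hspg2, Agrn, Bgn, Dcn, Lum and Fmod, which encode proteoglycan core proteins, and Has1, Has2 and Has3, which encode the hyaluronan synthases. RNA sequencing was performed on 3 control (CTL) cultures and 3 cultures treated with transforming growth factor-β1 (TGF-β1) at 50 ng/ml for 24 h. All 6 were primary cultures from kidneys of wild-type FvB mice aged 4 to 6 weeks by the labels (the study's methods give a lower range), grown with serum, EGF and ITS and then kept 24 h without serum before treatment began. The cells came from a collagenase digest of the kidney, and no sorting of cells is described. Nothing in the labels says whether the cultures of a group came from separate mice. The p-values measure the spread between these cultures, which may be technical in part. Y-linked transcripts, given below, set the replicate 2 cultures apart, so these held cells of mice not used for the other cultures.

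A proteoglycan is a core protein that carries long sulfated sugar chains, the glycosaminoglycans. Perlecan (Hspg2) and agrin (Agrn) carry mainly heparan sulfate and are built into basement membranes, including the one beneath the renal tubule. Versican (Vcan) is a large chondroitin sulfate proteoglycan that binds hyaluronan, and biglycan (Bgn), decorin (Dcn), lumican (Lum) and fibromodulin (Fmod) are small leucine-rich proteoglycans that bind collagen fibrils. Hyaluronan has no core protein and no sulfate; the synthases make it at the plasma membrane from UDP-sugars and extrude it into the matrix, where it is known to accumulate in injured kidneys.

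With TGF-β1, Vcan and Fmod passed the threshold, an adjusted p-value under 0.05 in edgeR's quasi-likelihood test across all genes. Vcan was 3.15 times and Fmod 6.10 times the CTL mean. The means of Has2 and Hspg2 were 2.06 and 1.16 times the CTL mean, and with all 6 cultures in edgeR these genes passed only when the replicate number was a block in the model. The same held for Agrn and Dcn, both lower. Bgn and Has3 passed with neither model, and Lum and Has1 had too few reads to be tested. Of the 8 tested genes, 2 were called higher and 0 lower, beside 5.00% and 6.69% of the 15862 genes tested. For the direction with 0, an unadjusted p-value under 0.05 was reached by 0 of the 8 in edgeR, and DESeq2 and limma-voom called 0. With the block, 4 were called higher and 2 lower, beside 15.1% and 19.1% of all genes tested. Every treated culture was above every CTL culture for 4 genes, Vcan, Fmod, Has2 and Hspg2, beside 17.2% of all genes tested that were higher without overlap and 35.1% without overlap in either direction. These 4 were higher, and Agrn and Dcn lower, within each of the 3 pairs of cultures with the same replicate number, beside 30.4% and 32.6% of all genes tested. Fmod entered the test only through its reads in the treated cultures, where it was higher.

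**Figure D1:**
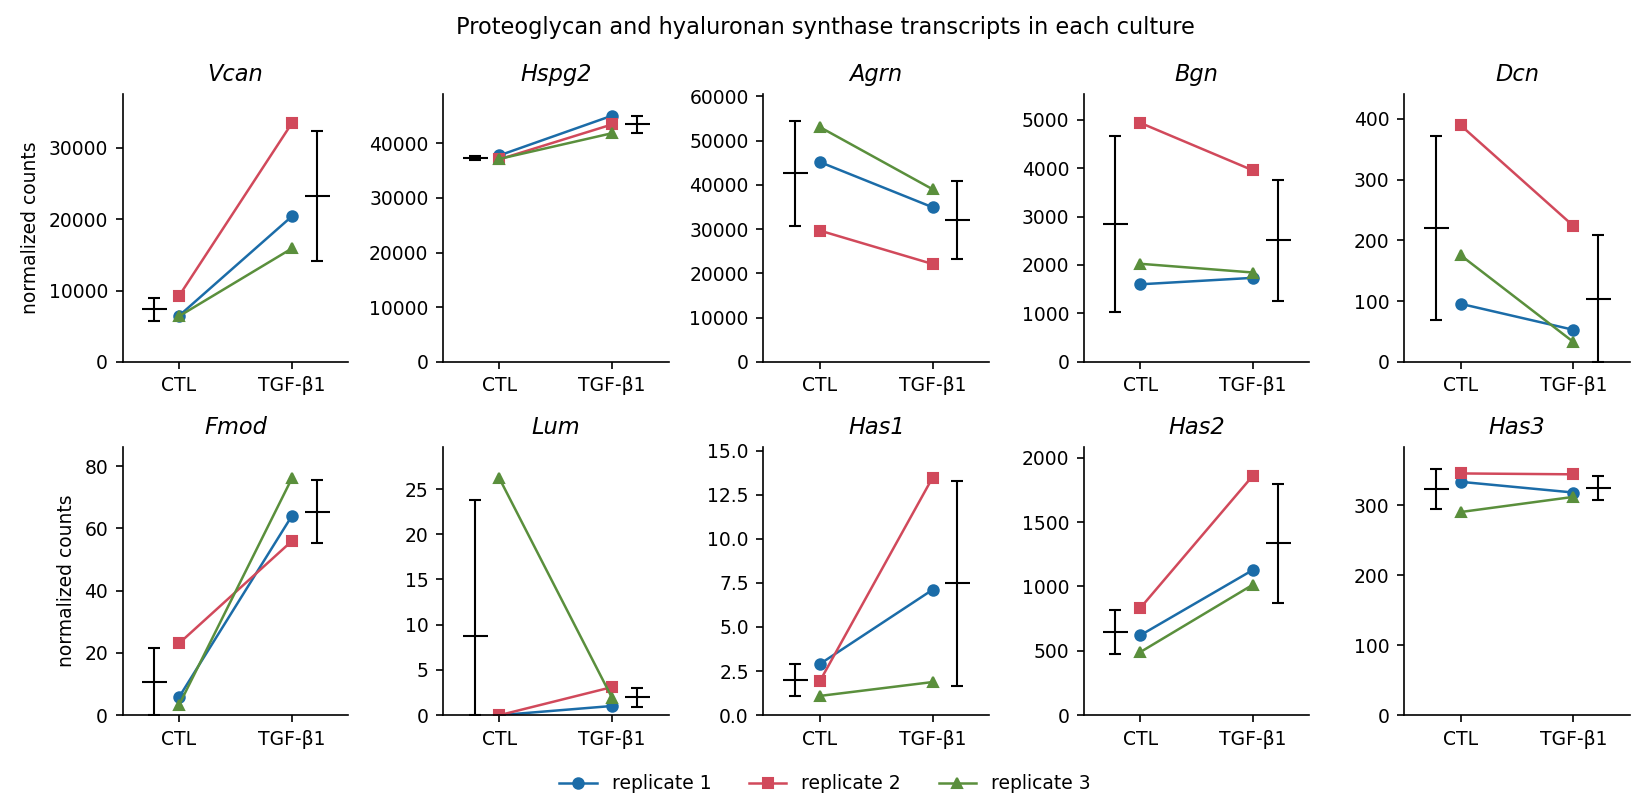
Normalized counts (y axes, each from 0) of the 10 transcripts in CTL and TGF-β1–treated cultures, with lines joining cultures of the same replicate number and black bars giving the group mean ± SD (n = 3), drawn no lower than 0. Vcan, Fmod, Has2 and Hspg2 are higher in every treated culture, while Agrn and Dcn fall along every line from overlapping groups.

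Totals on genes ran from 28313080 to 34183497 reads, so that 3 reads, the floor used for detection, correspond to 0.0878 to 0.106 CPM (counts scaled to a library total of 1e6) and cover counting error only. As a check of the treatment, 5 of 7 known TGF-β1 response genes were called higher, among them Fn1 (log2 fold change 1.04), and 0 were called lower (0 also at an unadjusted p-value under 0.05, and by DESeq2 and limma-voom). The cultures of replicate 2 stood apart in both groups. The study describes the mice as male. Transcripts of 4 Y-linked genes summed to 154 and 136 CPM in the replicate 2 cultures and to at most 0.177 CPM in the other 4, and Xist was present in all 6 at 198 to 652 CPM. The values in replicates 1 and 3 go against the description as male, and replicate 2 held both Y-linked transcripts and Xist. Because replicate 2 stood apart, results are also given without it. The tubule markers Krt8, Krt18, Epcam and Cdh1 were present in all cultures, as was the proximal tubule receptor Lrp2 at 916 to 2350 normalized counts, while the segment markers Aqp2 and Slc5a2 were near the floor, at 0 to 5.5 and 0 to 3.0. Fibroblast markers were also present, with Col1a1 at 16033 to 58086 normalized counts.

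Vcan (ENSMUSG00000021614.15) occupies positions 89655312 to 89742509 of chromosome 13 (GRCm38, minus strand), as given by the annotation. Normalized counts, which are reads scaled by TMM to a common library size, were 6464, 9248 and 6405 in CTL replicates 1, 2 and 3 and 20389, 33434 and 15893 after TGF-β1. The groups did not overlap, and replicate 2 was the highest culture in each. The mean went from 7372 ± 1625 to 23239 ± 9111 (SD, n = 3 each). The log2 fold change was 1.66 (standard error, SE, 0.31, 95% interval 0.90 to 2.41, edgeR adjusted p = 0.026). The pairs of cultures with the same number had log2 ratios of 1.66, 1.85 and 1.31. The call was lost when CTL replicate 1 (edgeR adjusted p = 0.119), CTL replicate 3 (0.0715) or TGF-β1 replicate 1 (0.0812) was left out, with log2 fold changes of 1.57, 1.56 and 1.75. Without both replicate 2 cultures the adjusted p was 0.00298, at a log2 fold change of 1.5, and without both cultures of replicate 1 or of replicate 3 it was 0.326 and 0.0829.

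Fmod (ENSMUSG00000041559.7; chromosome 1, 134037254 to 134048277, plus strand) was near the floor in CTL cultures. It had 6, 24 and 3 reads in the CTL cultures and 63, 54 and 81 after TGF-β1. In normalized counts these were 5.8, 23.1 and 3.3 in CTL and 64.0, 55.9 and 76.0 after TGF-β1, again with no overlap. The log2 fold change was 2.57 (SE 0.58, 95% interval 1.15 to 3.99, edgeR adjusted p = 0.0422). The CTL value was highest in replicate 2, where the pair ratio was smallest, at 1.28 on the log2 scale against 3.47 and 4.54 in replicates 1 and 3. When single cultures were left out, the call was kept in 1 of 6 fits. It was lost without CTL replicate 1 (adjusted p = 0.165), CTL replicate 3 (0.0715), TGF-β1 replicate 1 (0.128), TGF-β1 replicate 2 (0.0753) and TGF-β1 replicate 3 (0.104), all from edgeR, while the log2 fold change stayed between 2.17 and 3.80. Without both replicate 2 cultures it was 3.89 (edgeR adjusted p = 0.00298), and without both cultures of replicate 1 or of replicate 3 it was 2.29 and 2.05 (edgeR adjusted p = 0.413 and 0.164).

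Sequence upstream of the start site is shown for the genes called with TGF-β1, Fmod and Vcan. Agrn, lower in each pair but called only with the replicate block, is set beside them for the opposite direction. RefSeq promoters on GRCm38.p6 were given for 6 of the 10 genes (Bgn, Vcan, Fmod, Hspg2, Agrn and Has1). Agrn had 2 windows, and the one at the start of the gene in the annotation is shown. Each line is the 250 bases before the annotated start, 5′ to 3′ on the gene's strand, and capitals mark CAGAC or its reverse complement GTCTG, the letters of a Smad-binding element. They are chr1:134037004-134037253 (plus strand), chr13:89742513-89742762 (minus strand) and chr4:156197489-156197738 (minus strand).
Fmod: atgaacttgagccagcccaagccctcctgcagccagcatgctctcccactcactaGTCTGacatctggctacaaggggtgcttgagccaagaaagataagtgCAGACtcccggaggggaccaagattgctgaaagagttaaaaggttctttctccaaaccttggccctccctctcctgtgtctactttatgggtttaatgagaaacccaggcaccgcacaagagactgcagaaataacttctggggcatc
Vcan: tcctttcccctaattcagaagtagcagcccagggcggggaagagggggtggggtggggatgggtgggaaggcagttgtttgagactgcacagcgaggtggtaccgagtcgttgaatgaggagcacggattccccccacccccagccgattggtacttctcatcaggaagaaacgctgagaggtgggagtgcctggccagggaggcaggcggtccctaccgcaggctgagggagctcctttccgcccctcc
Agrn: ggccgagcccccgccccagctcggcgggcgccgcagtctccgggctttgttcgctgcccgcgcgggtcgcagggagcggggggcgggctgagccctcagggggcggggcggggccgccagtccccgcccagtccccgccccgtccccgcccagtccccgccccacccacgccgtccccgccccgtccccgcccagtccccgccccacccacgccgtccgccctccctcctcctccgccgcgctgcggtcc
Fmod held 2 matches to CAGAC on either strand, as did Has1, and 0 were found in the windows of Vcan, Bgn and Hspg2 and in both of Agrn. The same letters occur in 42.2% of 32851 mouse promoter windows of this length. GGGCGG on either strand, the letters of a GC box, occurred 12 times in this Agrn window and 2 times in the other, 5 times in Hspg2, 3 times in Bgn, 2 times in Vcan and 0 times in Fmod, and in 32.7% of all windows. TGANTCA, the letters of an AP-1 site, occurred in 0 of the 6 genes' windows and in 6.75% of all. GC content was 83.6% in the Agrn window shown, 60.8% in the other, 62.4% in Vcan and 51.2% in Fmod, beside a median of 52.4% over all windows. Motifs were counted with overlaps allowed within each kind, and a match describes letters only.

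Has2 (ENSMUSG00000022367.7; chromosome 15, 56665627 to 56694539, minus strand), the synthase gene with the most reads per length of exon, had 620, 832 and 490 normalized counts in CTL and 1128, 1861 and 1014 after TGF-β1. Every treated culture was above every CTL culture, and replicate 2 was again highest in both groups. For Has2 the log2 fold change was 1.04 (SE 0.29, 95% interval 0.33 to 1.76, edgeR adjusted p = 0.0753). With the replicate number as a block it was 1.03 (SE 0.07, edgeR adjusted p = 3.44e-05), and without the block DESeq2 gave an adjusted p of 0.00317 and limma-voom 0.0854. The pairs had log2 ratios of 0.86, 1.16 and 1.05. Without both replicate 2 cultures and without the block the value was 0.95 (edgeR adjusted p = 0.00925), while leaving out replicate 1 or replicate 3 from each group gave 1.12 and 1.04 (edgeR adjusted p = 0.425 and 0.159). Has2 shares 182 bp of exon with the antisense transcript Has2os, which itself had 4 to 18 reads per culture, against 449 to 1797 reads for Has2, and whether reads were assigned by strand is not given in the sources used here.

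Has3 (ENSMUSG00000031910.13; chromosome 8, 106870242 to 106884566, plus strand) had 333, 345 and 290 normalized counts in CTL and 318, 344 and 312 after TGF-β1. The groups overlapped fully. A log2 fold change of 0.01 was fitted (SE 0.10, edgeR adjusted p = 0.976), and the 95% interval, -0.23 to 0.25, does not include the Has2 value of 1.04. It was again 0.01 (edgeR adjusted p = 0.952) when replicate 2 was left out of each group. Its exons share 352 bp with Chtf8 on the opposite strand, a gene with 4618 to 5710 reads per culture, so the Has3 count is uncertain to that extent. Has1 (ENSMUSG00000003665.6; chromosome 17, 17843323 to 17855205, minus strand) had 3, 2 and 1 reads in CTL and 7, 13 and 2 reads after TGF-β1, too few for the test. Compared per length, as CPM per kb of exon, Has2 made up 73.5, 78.3 and 71.7% of the summed level of the 3 synthases in CTL cultures and 83.8, 88.5 and 82.9% after TGF-β1. Has3 made up the greater part of the remainder, a mean ± SD of 25.3 ± 3.4% in the 3 CTL and 14.5 ± 3.2% in the 3 treated cultures, and Has1 stayed under 1% in each culture.

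Hspg2 (ENSMUSG00000028763.16; chromosome 4, 137468769 to 137570630, plus strand) varied least among the CTL cultures. It had 37761, 37041 and 37118 normalized counts in CTL, a coefficient of variation of 1.06%, and 45032, 43427 and 41824 after TGF-β1. The difference was small and the groups did not overlap. Its log2 fold change was 0.22 (SE 0.06, 95% interval 0.07 to 0.36, edgeR adjusted p = 0.0663). The replicate block brought this p-value to 0.0118, DESeq2 gave 0.000605 and limma-voom 0.0486. The call with the block was lost without both replicate 1 cultures (0.207). Hspg2 was at 0.21 (edgeR adjusted p = 0.103) when replicate 2 was left out of each group in the fit with no block. Library size in place of TMM gave a log2 fold change of 0.15.

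Agrn (ENSMUSG00000041936.17; chromosome 4, 156165290 to 156197488, minus strand), the other basement membrane heparan sulfate proteoglycan, had 45165, 29677 and 53066 normalized counts in CTL and 34941, 22125 and 39016 after TGF-β1. The groups overlapped, and the replicate 2 culture was the lowest of each. The log2 fold change was -0.41 (SE 0.29, 95% interval -1.11 to 0.28, edgeR adjusted p = 0.402), and with the replicate block it was -0.41 (SE 0.05, edgeR adjusted p = 0.000566). The pairs gave log2 ratios of -0.37, -0.42 and -0.44. Without both replicate 2 cultures and without the block, the value was -0.41 with an adjusted p of 0.0523 from edgeR. Leaving out replicate 1 or replicate 3 from each group instead gave -0.44 and -0.39 (edgeR adjusted p = 0.736 and 0.529). Agrn was thus lower and Hspg2 higher within each pair, and the log2 fold changes with the block had 95% intervals of -0.53 to -0.30 and 0.10 to 0.34.

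**Figure D2:**
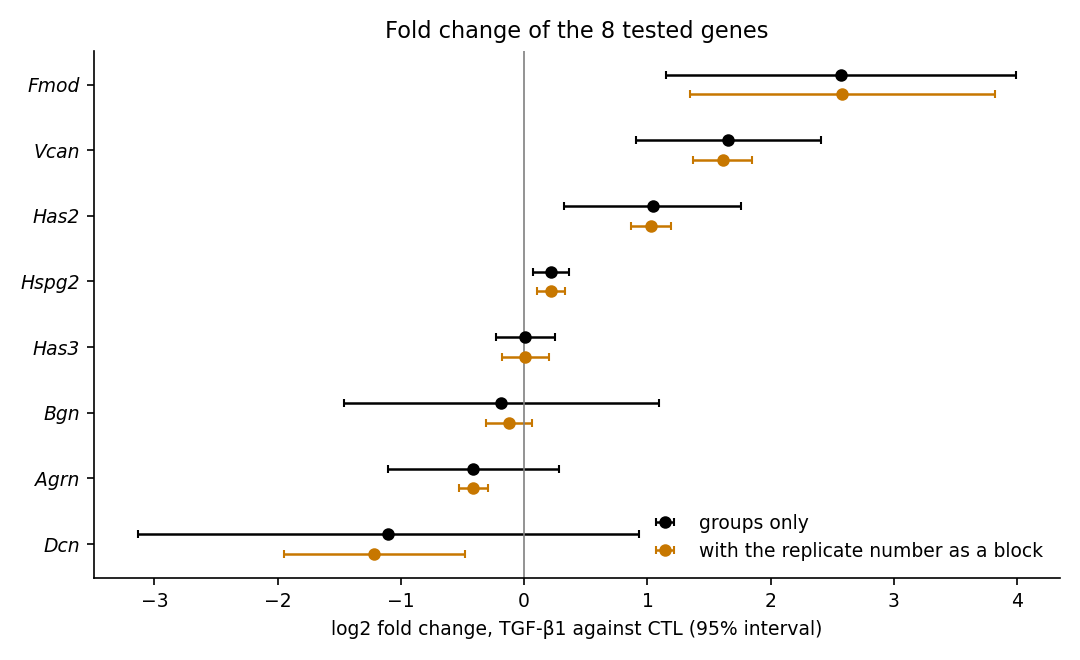
Log2 fold change of TGF-β1 against CTL (x axis) for the 8 tested genes, with 95% intervals from edgeR without (black) and with (orange) the replicate number as a block. The points of the 2 fits lie close together for each gene, and the interval of each of the 8 is narrower with the block.

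Dcn (ENSMUSG00000019929.14; chromosome 10, 97479609 to 97518143, plus strand) had 95.6, 389 and 176 normalized counts in CTL and 52.8, 224 and 32.9 after TGF-β1. Replicate 2 was the highest culture of both groups, which overlapped. The log2 fold change was -1.10 (SE 0.83, 95% interval -3.13 to 0.93, edgeR adjusted p = 0.446), and with the replicate block -1.21 (SE 0.30, edgeR adjusted p = 0.0256). The pair ratios were -0.86, -0.80 and -2.42 on the log2 scale, so the pair of replicate 3 fell furthest. Without both replicate 2 cultures and without the block the value was -1.66 (edgeR adjusted p = 0.0447). Leaving out replicate 1 or replicate 3 from each group instead gave -1.15 and -0.81 (edgeR adjusted p = 0.705 and 0.674).

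Bgn (ENSMUSG00000031375.16; chromosome X, 73483602 to 73495933, plus strand), which is the nearest relative of decorin among these proteins, had 1601, 4933 and 2025 normalized counts in CTL and 1735, 3952 and 1845 after TGF-β1. It was higher in 1 pair and lower in the other two. Its log2 fold change was -0.19 (SE 0.52, 95% interval -1.46 to 1.09, edgeR adjusted p = 0.854). With the block the interval was -0.31 to 0.07. Its value was -0.02 (edgeR adjusted p = 0.946) when replicate 2 was left out of each group. Lum (ENSMUSG00000036446.4; chromosome 10, 97565128 to 97572703, plus strand) had 0, 0 and 24 reads in CTL and 1, 3 and 2 reads after TGF-β1. It was above the floor in the library of CTL replicate 3 alone and was not tested.

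Among the 8 tested genes the coefficient of variation over CTL cultures was 101% for Fmod, 69.0% for Dcn, 63.6% for Bgn, 27.9% for Agrn, 26.7% for Has2, 22.0% for Vcan, 8.98% for Has3 and 1.06% for Hspg2. Bgn, Dcn, Vcan, Has2 and, by a small margin, Has3 were highest in replicate 2 of both groups, and Agrn was lowest there. Fmod and Hspg2 followed neither pattern, and in replicate 2 Fmod was at its highest in CTL and at its lowest after TGF-β1. Of the 6 tubule epithelium markers, 4 (Epcam, Cdh1, Krt8 and Krt18) were lowest in replicate 2 of both groups. Epcam had 2004 and 1694 normalized counts in the CTL and TGF-β1 cultures of replicate 2 and 5161 to 9116 in the other 4, and Cdh1 had 2580.5 and 2376 against 6565 to 10730. The 8 tested fibroblast markers split. Col1a1, Col1a2, Col3a1 and Pdgfrb were highest in replicate 2 of both groups, with Col1a1 at 46374 and 58086 there and 16033 to 25627 elsewhere, and Postn, Thy1, Pdgfra and Cd34 were lowest there, with Postn at 10478 and 12785 against 14430 to 29582. In a bulk culture, fewer cells of a type and less RNA per cell cannot be told apart.

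**Figure D3:**
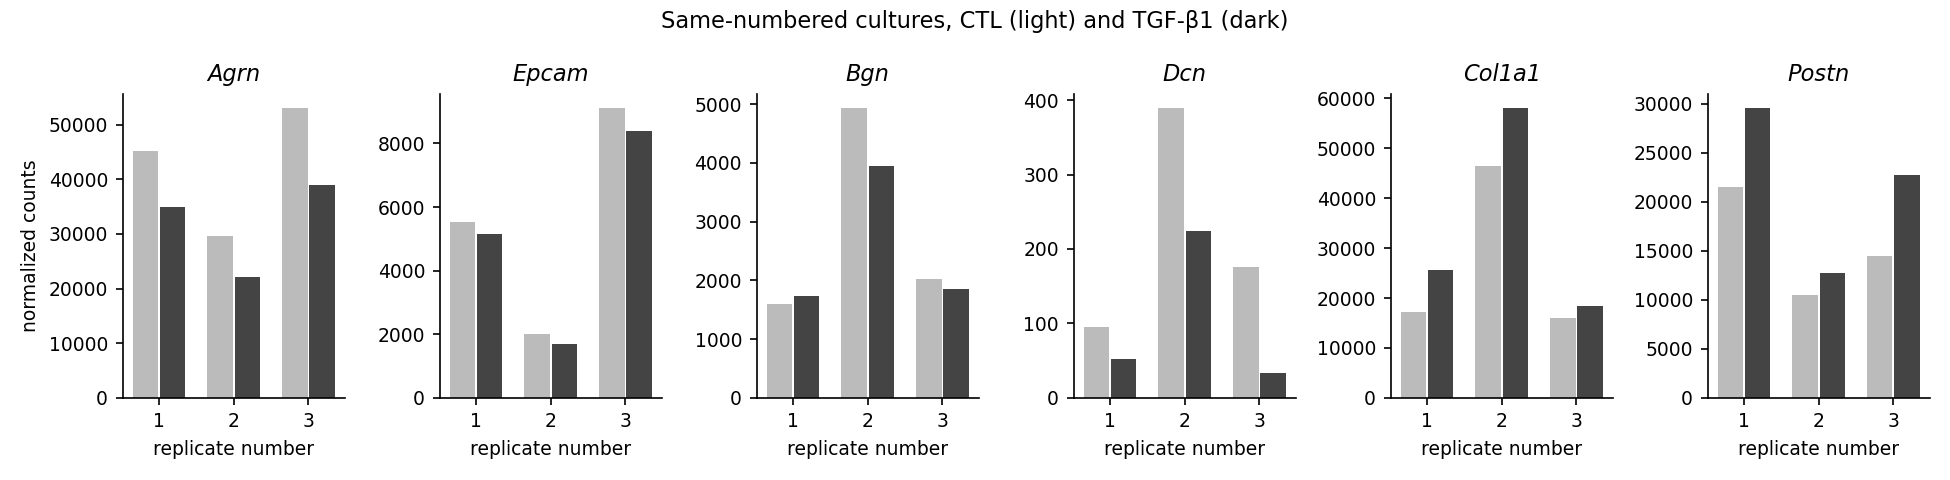
Normalized counts (y axes from 0) of Agrn, Bgn and Dcn beside the epithelial marker Epcam and the fibroblast markers Col1a1 and Postn, by replicate number, with CTL in light and TGF-β1 in dark bars, 1 culture each. In replicate 2 Agrn, Epcam and Postn are at their lowest and Bgn, Dcn and Col1a1 at their highest in both conditions, and the other tested fibroblast markers split in the same way, 3 highest and 3 lowest.

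Between the conditions, the 12 fibroblast markers summed to 49273 to 92465 normalized counts in CTL and 57642 to 119336 in TGF-β1–treated cultures, and 0 of the 8 with enough reads passed the threshold in edgeR or limma-voom. Of these, 1 reached an unadjusted p-value under 0.05, Cd34, which was lower and was called by DESeq2. With the replicate block 3 were called higher and 2 lower (62.5%, beside 34.2% of all genes tested). The markers Dpt, Pi16 and Tcf21 were each at 0 in at least 1 culture and at most at 5.8 normalized counts. Mfap4, also too low to be tested, had 2.9, 3.8 and 4.4 normalized counts in CTL and 15.2, 19.7 and 8.4 after TGF-β1, without overlap. The 6 tubule epithelium markers summed to 30384 to 80832 in CTL and 26577 to 66767 with TGF-β1, and Pax8 (log2 fold change -0.77) and Cdh16 (-1.5) were called lower. With the block, 4 of these 6 were called lower and 0 higher (66.7%, beside 34.2% of all genes tested). The part of these markers in the changes of Vcan, Has2, Agrn and Dcn was not tested.

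Levels of different genes were compared as CPM per kb of exon, since a longer transcript collects more reads. In CTL cultures Agrn was highest, at 149 ± 41.8, followed by Hspg2 at 84.4 ± 1.1, Vcan at 16.5 ± 3.6, Bgn at 15.1 ± 9.6, Has2 at 4.94 ± 1.31, Has3 at 1.64 ± 0.15 and Dcn at 1.22 ± 0.84 CPM per kb (SD, n = 3 each). The ranges of Vcan and Bgn overlapped, as did those of Has3 and Dcn. After TGF-β1, Agrn was at 106 ± 30.5, Hspg2 at 93.4 ± 3.2, Vcan at 49.3 ± 18.6, Bgn at 12.6 ± 6.1 and Has2 at 9.66 ± 3.18 CPM per kb, and the ranges of Agrn and Hspg2, and of Bgn and Has2, then overlapped. Fmod was at 0.105 ± 0.105 in CTL and 0.609 ± 0.103 CPM per kb after TGF-β1, and Lum and Has1 stayed lower than Fmod there. Taking the longest transcript in place of all exons raised Bgn in CTL to 34.6 CPM per kb, above Vcan at 19.2, so the order of these genes in CTL cultures rests on the length used.

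Agrin and perlecan transcripts made up 89.0, 76.5 and 89.5% of the summed level per kb of the 10 genes in CTL and 77.2, 60.7 and 80.6% after TGF-β1. Versican made up 5.30, 8.46 and 4.77% in CTL and 15.7, 25.9 and 12.4% after TGF-β1. The heparan sulfate proteoglycans thus gave most of the summed level in each culture, and the versican share was larger in each treated culture than in each CTL culture.

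**Figure D4:**
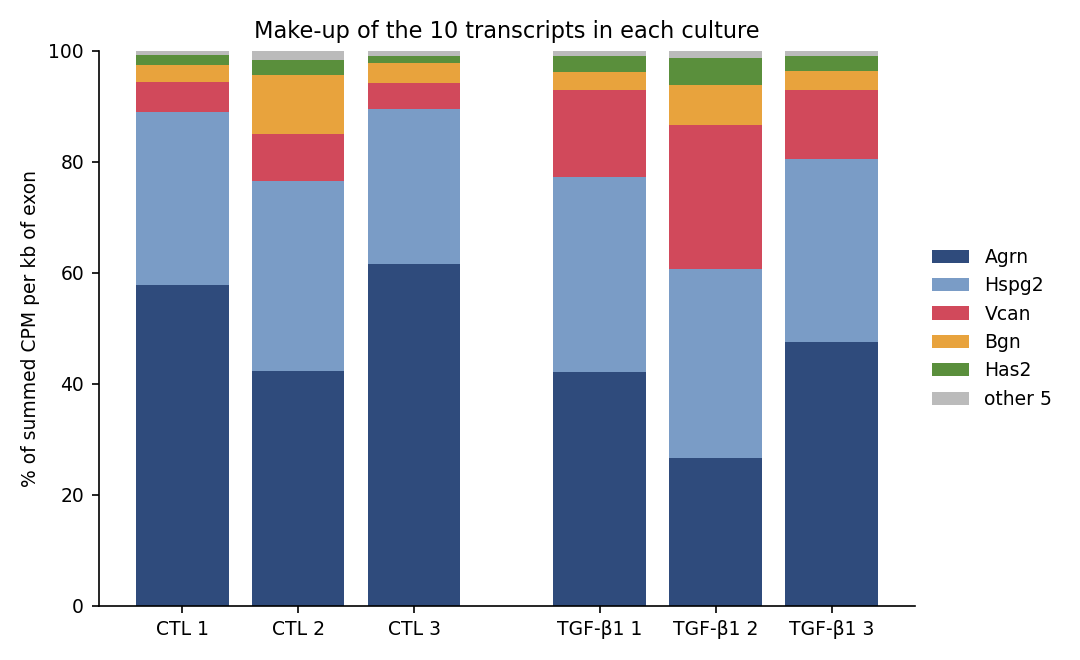
Share of each transcript in the summed level of the 10 genes (y axis, percent of CPM per kb of exon) in each culture (x axis). Agrn and Hspg2 fill 60.7 to 89.5% of each bar, and Vcan grows from 4.77 to 8.46% in CTL to 12.4 to 25.9% in TGF-β1–treated cultures.

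Genes that build, bind or break down these molecules were taken from 5 lists chosen by function, with 99 genes in all. Of these, 71 were tested, 5 were called higher and 7 lower (16.9% called, beside 11.7% of all genes tested), and the median log2 fold change was -0.00, the same to that precision as over all genes tested. The 7 include Hpse, Tnfaip6 and Itih2, which entered the test only through the CTL cultures, where they were higher, so the share rests in part on them. With the replicate block 18 were higher and 15 lower (46.5%, beside 34.2% of all genes tested).

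Chondroitin and dermatan sulfate synthesis had 15 of 16 genes tested, with 2 called higher and 0 lower (13.3%, beside 11.7% of all genes tested). The median log2 fold change was 0.16. Ust, which adds sulfate to uronic acid residues of these chains, went from 1156 ± 59.7 to 2983 ± 358 normalized counts (SD, n = 3 each), a log2 fold change of 1.37 (SE 0.10, edgeR adjusted p = 0.00217). Chst3, a chondroitin 6-O-sulfotransferase, went from 14.5 ± 3.6 to 39.0 ± 3.6, a log2 fold change of 1.43 (edgeR adjusted p = 0.0173). Ust kept its call in all 6 fits that left out 1 culture, and Chst3 lost it without CTL replicate 1, CTL replicate 2, TGF-β1 replicate 1 or TGF-β1 replicate 3. In the direction with 0 calls, 1 gene had an unadjusted p-value under 0.05 in edgeR, DESeq2 called 1 and limma-voom 0. With the block 7 were called higher and 2 lower (60%, beside 34.2% of all genes tested). Named after their values were seen, the 7 included the polymerizing enzyme Chsy1 (log2 fold change 0.68 with the block) and the 4-O-sulfotransferase Chst11 (0.96), and the 2 were Chst7 (-0.37) and Chst15 (-0.98), also sulfotransferases.

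Among heparan sulfate genes, 21 of 25 were tested, and 1 was called higher and 3 lower (19%, beside 11.7% of all genes tested). The median log2 fold change was -0.09. Hpse, the heparanase that cuts heparan sulfate chains, went from 78.2, 64.4 and 56.7 normalized counts in CTL to 10.2, 13.5 and 9.4 after TGF-β1, a log2 fold change of -2.59 (SE 0.24, edgeR adjusted p = 0.00379), and kept its call whichever culture was left out. It too entered the test only through the CTL cultures, where it was higher. Ndst1 and Ndst3, N-deacetylase/N-sulfotransferases that begin the modification of the chain, had log2 fold changes of -0.43 and -1.37 (adjusted p = 0.00759 and 0.0139, edgeR). Glce, the epimerase that acts after them, had 0.36 (edgeR adjusted p = 0.0225). Leaving out CTL replicate 1 ended the calls of Ndst1, Ndst3 and Glce. Ndst3 also lost its call without TGF-β1 replicate 1, and Glce lost it in each fit but the one without CTL replicate 3. The chain polymerases Ext1 and Ext2 had values of 0.05 and -0.09 (adjusted p = 0.655 and 0.239 from edgeR).

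Of 15 linker and donor genes, all tested, B4galt7, the enzyme that adds the first galactose of the linker joining chain to core protein, was called higher, with 1216 ± 42.4 normalized counts in CTL and 1763 ± 32.7 after TGF-β1 (log2 fold change 0.54, edgeR adjusted p = 0.00379), in this fit and whichever culture was left out. That was 6.67% of the list, beside 11.7% of all genes tested. None was called lower by edgeR, DESeq2 or limma-voom, and 0 had an unadjusted p-value under 0.05 in that direction in edgeR. Ugdh, which makes the UDP-glucuronic acid used by hyaluronan synthases and by sulfated chains, had a log2 fold change of -0.06 (edgeR adjusted p = 0.73). With the block, 4 genes were called higher and 0 lower (26.7%, beside 34.2% of all genes tested), the others being Xylt1, Gfpt2 and Slc26a2.

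Of 18 hyaluronan receptors, binding proteins and degrading enzymes, 13 were tested, with 1 called higher and 3 lower (30.8%, beside 11.7% of all genes tested). Cemip2, a cell-surface protein of hyaluronan breakdown, was called higher, with 1546 ± 51.9 and 2046 ± 83.4 normalized counts (log2 fold change 0.40, edgeR adjusted p = 0.00995). Hmmr, a hyaluronan-binding protein that also acts in the mitotic spindle, was called lower (log2 fold change -1.72, edgeR adjusted p = 0.00907), as were Tnfaip6 (-2.74, adjusted p = 0.0275) and Itih2 (-2.08, adjusted p = 0.0488), 2 proteins of hyaluronan crosslinking. The latter were low, at 10.9 to 34.6 and 27.3 to 68.3 normalized counts in CTL, and entered the test only through their reads in the CTL cultures, where they were higher. Itih2 lost its call in all 6 fits that left out 1 culture, and Tnfaip6 in each but the one without CTL replicate 3. Cemip2 lost its call without CTL replicate 1, and Hmmr without CTL replicate 1 or TGF-β1 replicate 1. Cd44, the main hyaluronan receptor, named after its values were seen, had 7294 ± 1617 normalized counts in CTL and 11428 ± 1154 after TGF-β1, a log2 fold change of 0.65 (edgeR adjusted p = 0.0644 and 0.000277 with the block).

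Of 25 other extracellular proteoglycan genes and partners, 7 had enough reads, and 1 was called, lower (14.3%, beside 11.7% of all genes tested). Podn, the small leucine-rich protein podocan, went from 1699, 1366 and 816 normalized counts in CTL to 209, 174 and 146 after TGF-β1. No treated culture came near a CTL culture, and the log2 fold change was -2.87 (SE 0.30, edgeR adjusted p = 0.00655), with the call kept whichever culture was left out. None of the 7 was called higher by edgeR, DESeq2 or limma-voom, and 0 had an unadjusted p-value under 0.05 in that direction in edgeR. With the replicate block 1 was called higher, Spock3, and 3 lower, Podn, Ogn and Omd (57.1%, beside 34.2% of all genes tested). Spock3 entered the test only through its reads in the treated cultures, where it was higher. It had 4, 33 and 11 reads in CTL and 22, 53 and 33 after TGF-β1, with overlap (edgeR adjusted p = 0.328 without the block). The cartilage proteoglycan Acan had 0 to 1.9 normalized counts.

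**Figure D5:**
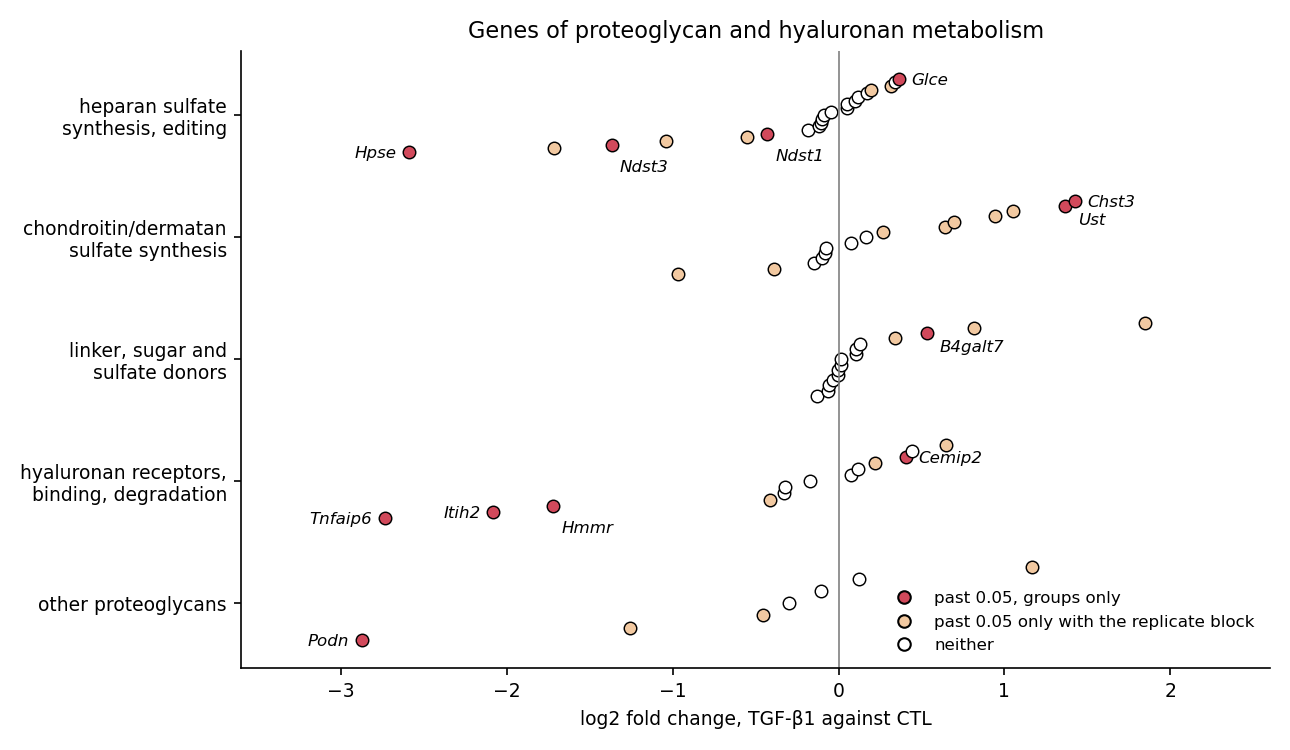
Log2 fold change of TGF-β1 against CTL (x axis) for the 71 tested genes of 5 functional lists (y axis, ordered by value within a list), with red points past 0.05 in adjusted p-value from edgeR, pale orange points past it only with the replicate block and open points past it in neither fit. The 12 red points are named, 5 to the right of 0 and 7 to the left.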

How the data were processed

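The authors trimmed single-end 50-bp reads with Trim Galore, aligned them to GRCm38 with STAR 2.4.1d and counted them per gene with HTSeq 0.6.1. What the authors deposited is 1 file of raw read counts per culture. Strandedness of the counting and the annotation release are not given in the sources used here. Reads on more than 1 gene (1.88 to 1.97% of the total) and reads with several alignments (18.7 to 19.4%) were outside the gene counts, so overlapping genes such as Has2os and Chtf8, which lie opposite Has2 and Has3, can take reads from them. Symbols, positions and exon lengths came from GENCODE M21 (GRCm38), which matched 46005 of 46517 identifiers without version numbers.

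Tests used edgeR 4.0.16 under R 4.3.3 (filterByExpr, TMM, robust glmQLFit, glmQLFTest, two-sided, Benjamini-Hochberg over 15862 genes). Figures were drawn with matplotlib 3.10.9. The members and gene lists were chosen with earlier results of these data known. Named genes were the 10 members, up to 4 called genes per list and direction, and the marker and response genes. Genes called only with the block or another tool, and Ext1, Ext2, Ugdh and Acan, were named after their values were seen. Some genes of the marker and response lists are not reported here by name. The test had no replicate block, since the study describes no pairing. The values nonetheless went with the replicate numbers. For deviations from the group means, cultures sharing a number had correlations of 0.34, 0.684 and 0.572, and other pairs at most 0.215. Deviations within a group of 3 are not independent and replicate 2 stood apart, so whether the cultures were paired by design cannot be told. An exact permutation test of 3 cultures against 3 cannot go below p = 0.1. Alternatives were DESeq2 1.42.0, limma-voom (limma 3.58.1), RLE, library size only, other filters (1 count in total, 10 counts in every sample), down-sampling, a threshold of 0.01, the replicate block and leaving out cultures.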

Additional observations from a re-analysis of the deposited data

How the results depend on the processing

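Leaving out both cultures of a replicate number, with or without the block, was chosen after seeing the data, and no cause of the differences given here was tested. Among the members, 2 genes were called higher and 0 lower. DESeq2 gave 4 higher, both other filters 1, a threshold of 0.01 gave 0, and the replicate block 4 higher and 2 lower. Leaving out 1 culture gave 0 to 2 higher and 0 lower. Without both cultures of replicate 1, 2 or 3, these were 0, 3 and 0 higher and 0, 1 and 0 lower, and with the block 3, 4 and 4 higher and 2 lower each time. Among related genes, 5 were higher and 7 lower. DESeq2 gave 11 higher, the block 18 and 15, a threshold of 0.01 gave 3 and 4, and leaving out 1 culture 2 to 6 and 2 to 8. Without replicate 1, 2 or 3 these were 0, 14 and 1 higher and 0, 8 and 2 lower, and with the block 13, 17 and 19 higher and 11, 16 and 16 lower. Over all genes, 793 were higher and 1061 lower. DESeq2 gave 1201 higher, library size only 508 higher and 1467 lower, the block 2388 and 3037, a threshold of 0.01 gave 127 and 192, and leaving out 1 culture 109 to 516 and 186 to 807. Without replicate 1, 2 or 3 these were 0, 1084 and 95 higher and 0, 1290 and 190 lower, and with the block 1026, 2288 and 2581 higher and 1649, 2718 and 3254 lower. In the edgeR fit with 0 calls, 1938 genes fell under 0.05 before adjustment.

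Vcan did not pass when genes were kept from 1 count on (edgeR adjusted p = 0.0891). The log2 fold change of Bgn ran from -0.677 to 0.470 when 1 culture was left out, above 0 without CTL replicate 2 and, at 0.029, without TGF-β1 replicate 1. That of Has3 ran from -0.0638 to 0.0581, below 0 without CTL replicate 3 and, at -0.0416, without TGF-β1 replicate 2. Has3 was also below 0 with library size only (-0.0675), after down-sampling (-0.0202) and without both cultures of replicate 3 (-0.0344, and -0.035 with the block). Vcan, Fmod, Has2, Hspg2, Agrn and Dcn kept their direction in every fit that tested them. With the replicate block, Vcan, Fmod, Has2, Agrn and Dcn passed whichever replicate number was left out. These fits hold only the remaining pairs of cultures, so their p-values lean largely on a spread estimated across genes. They share cultures with each other and with the full fit, and are a weak check. The block ended no call among the members and left Bgn and Has3 without one.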

Other observations

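Marker lists of other cell types that a kidney digest could hold were also counted. Of 7 endothelial markers 3 were tested and 0 were called by edgeR or limma-voom, with 1, Flt1, lower at an unadjusted p-value under 0.05 and in DESeq2, and they summed to 1157 to 1654 normalized counts in CTL and 722 to 1123 after TGF-β1. The replicate block called 1 of the 3 tested lower and 0 higher (33.3%, beside 34.2% of all genes tested). Cdh5 and Pecam1 were at 0 to 16.6. Of 7 leukocyte markers 1, Csf1r, was called lower (log2 fold change -1.32, adjusted p = 0.0238 from edgeR), and Cd3e was at 0 to 1.1. The block called 1 of the 5 tested leukocyte markers lower and 0 higher (20%, beside 34.2%). Of 7 podocyte and mesangial markers 4 were tested and 0 were called by limma-voom or by edgeR without the block (2 lower at an unadjusted p-value under 0.05, and 2 in DESeq2). The block called all 4 lower (100%, beside 34.2% of all genes tested). Among them Itga8 entered the test only through its reads in the CTL cultures, where it was higher. Nphs1 was at 0 to 5.8, while Wt1 ran from 1058 to 3351 and was highest in replicate 2 of both groups.

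Among tubule segments, 2 of 4 tested proximal markers were called lower, Aqp1 (log2 fold change -2.91, adjusted p = 0.00919 from edgeR) and Lrp2 (-0.93, adjusted p = 0.0165). Of the 5 loop and distal markers 2 were tested and 0 called, with 0 at an unadjusted p-value under 0.05 in edgeR and 0 called by DESeq2 or limma-voom. Of the 7 collecting duct markers 1, Scnn1g, was tested, and it was not called without the block (log2 fold change -1.77, adjusted p = 0.0845 from edgeR). The block called 3 proximal, 1 loop and distal and 1 collecting duct marker lower and 0 higher. These were 75, 50 and 100% of those tested, beside 34.2% of all genes tested. Hnf4a, a tested proximal marker, and Scnn1g entered the test only through their reads in the CTL cultures, where they were higher.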
